A study of Mus musculus with 24 samples.

Results

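Genes of 7 solute carrier families (Slc4, Slc5, Slc8, Slc9, Slc13, Slc20 and Slc26) were followed in mouse kidney through acute injury and through treatment with an antisense oligonucleotide to miR-22, a microRNA. They were taken by gene symbol, with 1 probe for each gene, and numbered 51 of the 19505 genes named on the array. Of these, 10 belonged to Slc4, 12 to Slc5, 3 to Slc8, 9 to Slc9, 5 to Slc13, 2 to Slc20 and 10 to Slc26. The symbols take in 3 proteins that do not transport ions themselves: the scaffolds Slc9a3r1 and Slc9a3r2, which anchor transporters at the brush border, and Slc4a1ap, an adaptor named for its binding to the anion exchanger Slc4a1. The other 48 are named as solute carriers. Slc12 and Slc34 genes were not counted as members.

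Total RNA of halved kidneys came from 10-week-old males of the C57BL/6N strain. Rhabdomyolysis, a breakdown of skeletal muscle that releases heme proteins and injures the kidney, was induced with 50% glycerol injected into the gastrocnemius muscle, and sham animals underwent the whole protocol except that injection. Subcutaneous anti-miR-22 or mock oligonucleotide (20 mg/kg) preceded the glycerol step by 24 h in every animal, and kidneys were taken 24 h after that step. All groups had water withheld for 23 h and were given the painkiller carprofen (5 mg/kg). The 4 groups were sham with mock (5 arrays), sham with anti-miR-22 (5), rhabdomyolysis with mock (7) and rhabdomyolysis with anti-miR-22 (7). There was no group without an oligonucleotide, and the labels do not say whether the mild or the severe glycerol dose of the protocol was used.

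These families carry much of the sodium-coupled traffic of the nephron. In the proximal tubule the sodium gradient set up by the sodium pump drives glucose, lactate, citrate, sulfate and phosphate into the cell, sodium-proton exchange at the brush border reclaims filtered bicarbonate, and sodium-bicarbonate cotransport at the basolateral side returns it to the blood. Further along, sodium-calcium exchange in the distal tubule and chloride-bicarbonate exchange in intercalated cells of the collecting duct adjust calcium and acid-base balance.

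The 2 oligonucleotides and the microRNA are shown because they define the treatment. The microRNA sequence is that of RefSeq (GRCm38.p6, chr11:75463772-75463793, plus strand) with its seed, bases 2 to 8, in capitals. In the oligonucleotides, written 5′ to 3′ as DNA letters, capitals mark the bases at which the pair differs.
mmu-miR-22-3p: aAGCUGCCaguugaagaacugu
anti-miR-22: ctTcAacTggcAgct
mock: ctAcTacAggcTgct
Anti-miR-22 can pair with all 15 bases from 2 to 16 of the microRNA. The mock differs at 4 bases and keeps 11 of these 15 pairs, 6 of them among the 7 seed bases.

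Values are log2 signals as deposited, and the median of all values was 5.81. Of the 51 genes, 18 had all group means below that median. They are called dim here, and no fold is given for them, because no background level was used. Differences come from limma fits over all 22205 probes, appear on the log2 scale with the fitted standard error (SE), and were called at a Benjamini-Hochberg adjusted p below 0.05. The labels do not state outright that each array is a separate animal, so the p-values rest on the spread between arrays, which may be technical in part. Array medians ran from 5.752 to 5.857. Kidney markers were present in sham mock arrays, with mean values of 17.31 for Lrp2 (proximal tubule), 18.25 for Umod (thick limb), 15.14 for Aqp2 (principal cell) and 9.06 for Nphs1 (podocyte). Sham mock array 1 stood apart in injury genes: Havcr1 was 14.59 there and 7.00 to 7.74 on the other sham mock arrays, and Lcn2 13.70 against 7.75 to 8.91. Rhabdomyolysis mock array 6 correlated least with the rest of its group (r = 0.991). Leaving out either array left the counts of members called after glycerol at 31 with mock and 31 with anti-miR-22.

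The first question was what glycerol injury does to these transporters when the mock oligonucleotide is given. Most of those that moved fell. Of the 51 genes, 26 fell and 5 rose, so that 60.8% were called where 34.4% of all probes were. By direction, 51% of the members fell against 16.4% of all probes, and 9.8% rose against 18%. Of the 33 members not dim, 84.8% were called and 72.7% fell, beside 56.5% and 26% of probes not dim. Of the 18 dim members, 16.7% were called. The median difference over all 51 members was -0.48, beside -0.000855 over all probes. With anti-miR-22 the counts were again 26 lower and 5 higher, where 37.4% of all probes were called (17.6% lower, 19.8% higher), and the median was -0.40 beside 0.00284. Groups that did not overlap were found for 19 members below and 5 above sham with mock (9.85% and 11.3% of all probes), and for 22 below and 2 above with anti-miR-22 (11.2% and 12.7%). The 2 glycerol comparisons share no array but share 1 estimate of spread per probe. Between them 24 genes fell in both and 4 rose in both, and 0 were called in opposite directions. The same counts were not made over all probes, so this agreement cannot be set against the background. In a bulk sample, fewer cells of a type and less RNA per cell cannot be told apart.

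**Figure D1:**
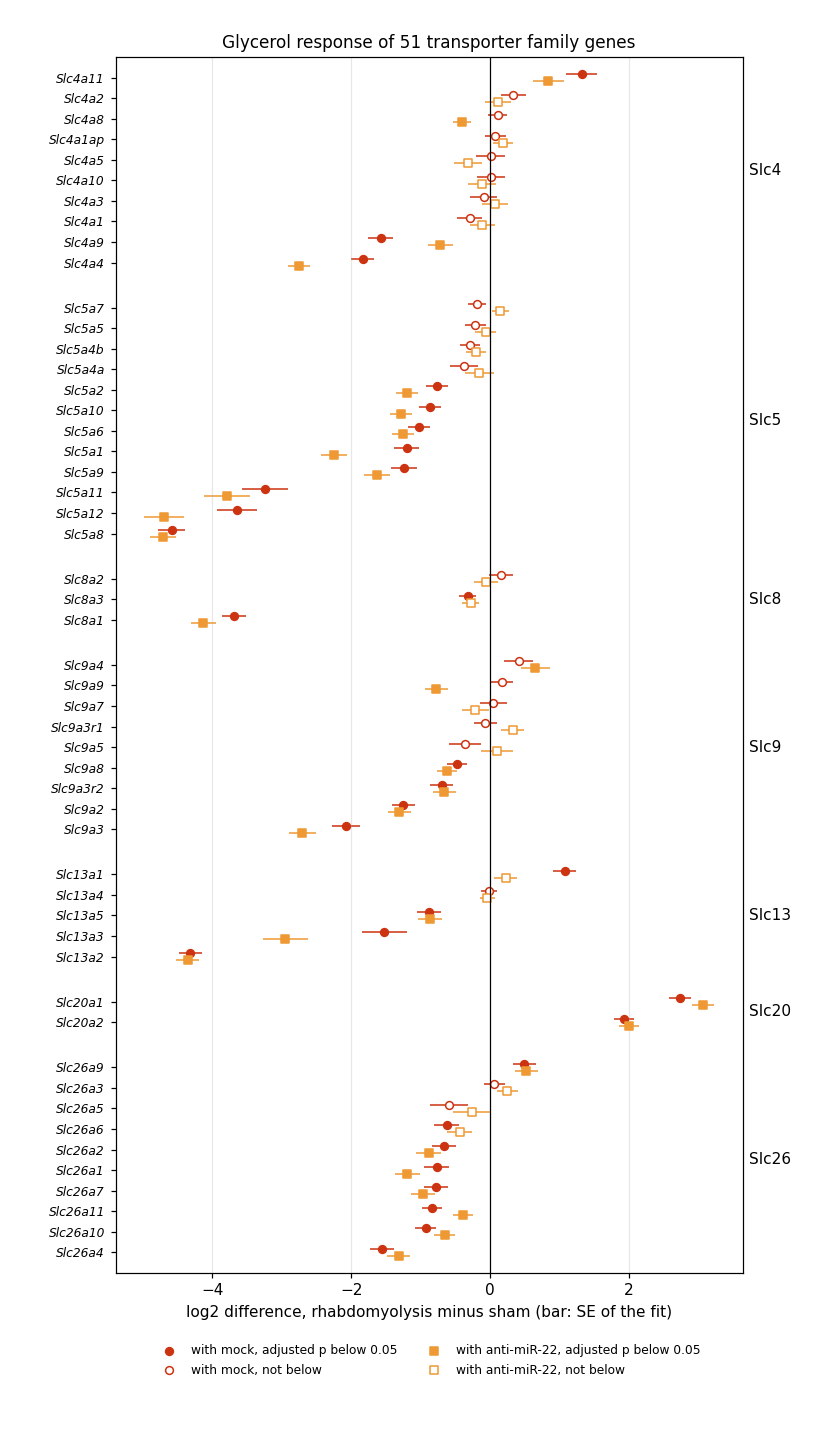
Log2 difference between rhabdomyolysis and sham (x axis) for each of the 51 genes, ordered by family, with mock (circles) and with anti-miR-22 (squares). Bars are the SE of the fit and filled symbols mark an adjusted p below 0.05. Slc5a8, Slc13a2, Slc8a1 and Slc5a12 lie farthest to the left, at -4.59 to -3.65 with mock, and both Slc20 genes lie to the right.

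The steepest falls among the sodium-coupled glucose and monocarboxylate carriers (Slc5) were those of the 2 lactate cotransporters of the proximal tubule. Slc5a8, the high-affinity carrier SMCT1, measured 16.24, 15.95, 15.44, 15.90 and 16.03 on the sham mock arrays and 10.98 to 12.24 (median 11.22) on the rhabdomyolysis mock arrays. The groups lay far apart. Slc5a8 fell 24.0-fold with mock (-4.59 ± 0.19, SE, n = 7 against 5, limma adjusted p = 4e-18). With anti-miR-22 its sham values of 15.85, 15.98, 16.08, 15.84 and 15.57 gave way to 10.75 to 11.67 (median 11.18), a 26.2-fold fall (-4.71 ± 0.19, adjusted p = 1.38e-18).

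Slc5a12, the low-affinity lactate carrier SMCT2, read 16.60, 16.65, 16.41, 16.40 and 16.62 in sham mock kidneys and 12.11 to 13.69 (median 12.79) after glycerol. It fell 12.5-fold with mock (-3.65 ± 0.29, adjusted p = 6.71e-12). Its sham anti-miR-22 values were 16.99, 17.08, 16.73, 17.25 and 17.08, and its injured values with anti-miR-22 were 11.41 to 13.64 (median 12.31). The fall with anti-miR-22 was 26-fold (-4.70 ± 0.29, adjusted p = 1.72e-14), and the difference between these responses was not called (-1.05 ± 0.40, adjusted p = 0.248). Again no rhabdomyolysis array reached a sham array. Slc5a11, a sodium-coupled inositol carrier, fell 9.48-fold with mock (-3.25 ± 0.33, adjusted p = 1.78e-09) and 13.9-fold with anti-miR-22 (-3.79 ± 0.33, adjusted p = 5.57e-11). Its values were spread more widely than those of Slc5a8, from 5.72 to 7.83 on the rhabdomyolysis mock arrays and from 9.38 to 10.55 on the sham mock arrays.

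The glucose carriers fell less. Slc5a2 encodes SGLT2, which reabsorbs most filtered glucose in the early proximal tubule. Its sham mock values were 15.22, 15.12, 14.87, 14.84 and 14.82, and its rhabdomyolysis mock values ran from 13.79 to 14.58 (median 14.40). This was a fall of 1.70-fold (-0.76 ± 0.16, adjusted p = 0.000197), with no overlap between the groups. With anti-miR-22 the sham values of 15.21, 15.42, 14.83, 15.42 and 14.98 stood against 13.70 to 14.24 (median 13.97), a fall of 2.29-fold (-1.20 ± 0.16, adjusted p = 1.83e-07).

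Slc5a1, the gene of SGLT1, takes up the glucose that SGLT2 leaves. It read 11.47, 10.92, 11.29, 11.21 and 11.33 in sham mock kidneys and 9.61 to 11.01 (median 9.85) in rhabdomyolysis mock kidneys. The groups overlapped through 1 array, rhabdomyolysis mock 6, which held the 11.01; the other 6 arrays reached at most 10.20. Slc5a1 fell 2.30-fold with mock (-1.20 ± 0.18, adjusted p = 3.21e-06), or by 1.36 on the log2 scale without that array. With anti-miR-22 it went from 11.01, 11.48, 11.15, 11.33 and 11.06 to between 8.67 and 9.48 (median 8.92), a fall of 4.75-fold (-2.25 ± 0.18, adjusted p = 1.44e-11).

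Among the other Slc5 genes, the mannose and fructose carrier Slc5a10 (SGLT5) fell by 0.87 ± 0.15 with mock and by 1.29 ± 0.15 with anti-miR-22, and the related mannose carrier Slc5a9 (SGLT4) fell by 1.24 ± 0.19 and by 1.63 ± 0.19 on the log2 scale. Slc5a6, which carries biotin and pantothenate, fell by 1.02 ± 0.16 and by 1.25 ± 0.16. In all, 8 of the 12 Slc5 genes fell with mock (66.7%, beside 16.4% of all probes) and 8 with anti-miR-22 (66.7%, beside 17.6%), and 0 rose (beside 18% and 19.8%). The 4 not called in either comparison were dim: the related pair Slc5a4a and Slc5a4b, the iodide carrier Slc5a5 and the choline carrier Slc5a7. Their differences were -0.38 to -0.19 with mock and -0.21 to 0.15 with anti-miR-22. Whether the probes of Slc5a4a and Slc5a4b tell these genes apart was not examined. With mock, Slc5a4a was called without sham mock array 3 (adjusted p = 0.0175) and Slc5a4b without rhabdomyolysis mock array 1 (adjusted p = 0.0106).

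The sodium-coupled carboxylate and sulfate carriers (Slc13) split. Slc13a2, the apical citrate and succinate carrier NaDC1, read 12.13, 12.46, 12.27, 12.79 and 12.31 in sham mock kidneys and 7.67 to 8.63 (median 8.06) in rhabdomyolysis mock kidneys. It fell 20.0-fold with mock (-4.32 ± 0.16, adjusted p = 7.29e-19) and 20.5-fold with anti-miR-22 (-4.36 ± 0.16, adjusted p = 3.76e-19), where sham values of 12.20, 11.90, 11.95, 11.90 and 12.29 stood against 7.17 to 8.17 (median 7.78). The groups were far apart in either case.

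Slc13a1, which reabsorbs sulfate at the brush border, moved the other way. With mock it read 16.60, 16.77, 16.61, 16.70 and 16.90 on sham arrays and 17.46 to 18.09 (median 17.76) on rhabdomyolysis arrays. All injured arrays lay above all sham arrays, a rise of 2.1-fold (1.07 ± 0.17, adjusted p = 4.63e-06). With anti-miR-22 the sham values were 15.91, 15.996, 15.74, 16.14 and 16.15, the injured values ran from 15.51 to 16.87 (median 16.19), and the groups overlapped (0.22 ± 0.17, adjusted p = 0.334). The difference between these responses was -0.85 ± 0.24 (interaction, adjusted p = 0.0940) and was not called.

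Slc13a3, the basolateral dicarboxylate carrier NaDC3, fell 2.88-fold with mock (-1.52 ± 0.32, adjusted p = 0.000313) and 7.73-fold with anti-miR-22 (-2.95 ± 0.32, adjusted p = 6.93e-09). The citrate carrier Slc13a5 fell by 0.88 ± 0.17 and by 0.86 ± 0.17 on the log2 scale. The sulfate carrier Slc13a4 was dim (2.64 to 2.72 in the group means) and was not called.

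The 2 sodium-phosphate cotransporters of the Slc20 family, PiT-1 and PiT-2, which also serve as receptors for retroviruses, both rose. Slc20a1 read 10.21, 9.67, 10.22, 10.09 and 10.11 in sham mock kidneys and 12.42 to 13.35 (median 12.77) in rhabdomyolysis mock kidneys. It rose 6.65-fold with mock (2.73 ± 0.16, adjusted p = 8.59e-15). With anti-miR-22 it went from 10.11, 9.49, 10.16, 10.39 and 10.15 to between 12.92 and 13.35 (median 13.13), a rise of 8.35-fold (3.06 ± 0.16, adjusted p = 4.88e-16). All injured arrays lay above all sham arrays.

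Slc20a2 read 10.35, 10.53, 10.62, 10.29 and 10.42 with mock in sham and 11.99 to 12.71 (median 12.27) after glycerol, a rise of 3.80-fold (1.93 ± 0.15, adjusted p = 3.14e-12). With anti-miR-22 it went from 10.36, 10.12, 10.26, 10.28 and 10.23 to between 11.60 and 12.53 (median 12.36), a rise of 4.01-fold (2.00 ± 0.15, adjusted p = 1.09e-12). Markers of other cell types also rose in these comparisons. All 4 stroma markers measured were higher with mock and with anti-miR-22 (medians of 1.52 and 1.41), with mean levels of 8.65 to 9.09 on sham mock arrays and 10.39 to 10.996 on rhabdomyolysis mock arrays. Of 6 macrophage markers 4 were higher and 1 lower in either comparison, with mean levels of 6.16 to 6.95 and 7.43 to 7.86 on the same arrays. Their part in the rise of Slc20a1 and Slc20a2 was not tested. The Slc34 phosphate cotransporters, which are not members, gave values on either side. Slc34a1, the main carrier of the proximal brush border, differed by -1.49 with mock (adjusted p = 5.17e-09), Slc34a3 by -3.30 (1.94e-12) and Slc34a2 by 3.98 (8.32e-16).

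The sodium-calcium exchangers (Slc8) showed 1 steep fall. Slc8a1, which exports calcium at the basolateral side of the distal tubule, read 10.96, 10.89, 9.90, 10.85 and 10.89 in sham mock kidneys and 6.36 to 7.29 (median 7.12) in rhabdomyolysis mock kidneys. Sham mock array 3 was the low one of its group, and still lay well above the injured arrays. Slc8a1 fell 12.9-fold with mock (-3.69 ± 0.17, adjusted p = 6.5e-17) and 17.5-fold with anti-miR-22 (-4.13 ± 0.17, adjusted p = 3.61e-18), where sham values were 10.87, 10.87, 11.28, 11.46 and 10.98 and injured values 6.79 to 7.14 (median 6.98). Distal convoluted tubule markers moved with it: all 4 listed were measured and all 4 fell in either comparison, and their mean level went from 11.08 to 11.67 on sham mock arrays to 8.36 to 8.95 on rhabdomyolysis mock arrays. Their part in the fall of Slc8a1 was not tested. Slc8a2 and Slc8a3 were dim. Slc8a3 was called with mock at the edge of the threshold (-0.32 ± 0.12, adjusted p = 0.0410). The call ended when any 1 of 7 arrays was left out (sham mock 1, 2, 4 or 5, or rhabdomyolysis mock 2, 3 or 5, with adjusted p 0.0515 to 0.151). Slc8a3 also lost it with median centring, only the groups compared, the replicate block, a second quantile normalization, and trend and robust moderation (0.0533 to 0.0818). With anti-miR-22 its value of -0.28 was called only without rhabdomyolysis anti-miR-22 array 6 (adjusted p = 0.0498) or sham anti-miR-22 array 1 (0.0396), of the arrays left out in turn.

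**Figure D2:**
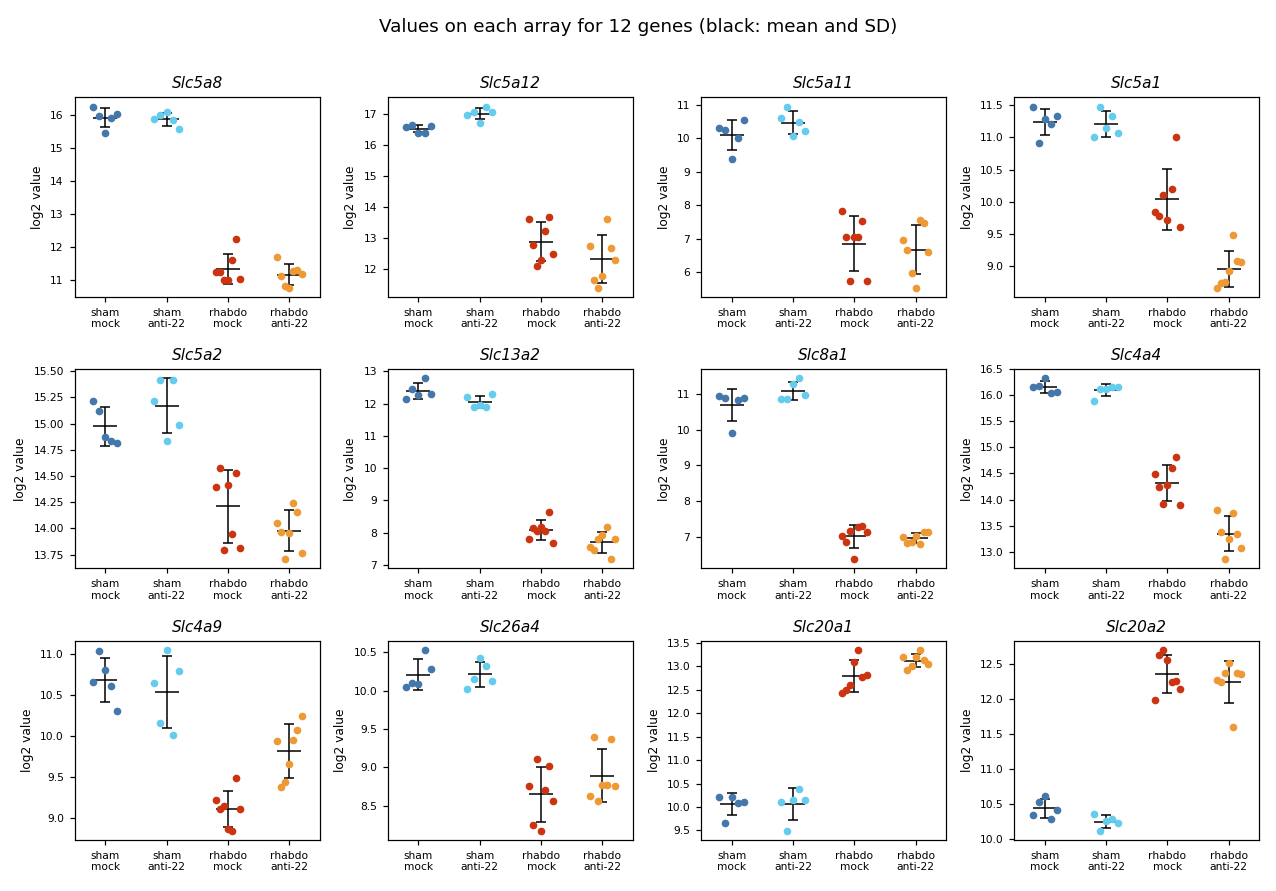
Log2 value on each array (y axis) for 12 genes in the 4 groups; points are arrays, black marks are the group mean and SD, and anti-22 stands for anti-miR-22. Slc5a8, Slc5a12, Slc13a2 and Slc8a1 separate sham from rhabdomyolysis by several log2 units, Slc5a1 has 1 high array (11.01) in the rhabdomyolysis mock group, and Slc20a1 and Slc20a2 are higher in both injured groups.

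Of the sodium-proton exchangers (Slc9), the proximal brush-border exchanger NHE3, encoded by Slc9a3, changed most. It read 13.93, 14.32, 13.60, 14.18 and 14.03 in sham mock kidneys and 11.45 to 12.67 (median 11.83) in rhabdomyolysis mock kidneys, a fall of 4.21-fold (-2.08 ± 0.20, adjusted p = 3.59e-10). With anti-miR-22 it went from 13.11, 13.07, 13.13, 13.19 and 13.05 to between 9.71 and 10.98 (median 10.37), a fall of 6.53-fold (-2.71 ± 0.20, adjusted p = 8.86e-13). No injured array reached a sham array in either case.

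The apical exchanger Slc9a2 (NHE2) fell 2.38-fold with mock (-1.25 ± 0.17, adjusted p = 2.77e-07) and 2.47-fold with anti-miR-22 (-1.31 ± 0.17, adjusted p = 1.08e-07). Slc9a8 (NHE8) fell by 0.48 ± 0.14 and by 0.62 ± 0.14 on the log2 scale, and the scaffold Slc9a3r2 by 0.70 ± 0.16 and by 0.66 ± 0.16. The endosomal exchanger Slc9a9 fell with anti-miR-22 (-0.77 ± 0.16, adjusted p = 0.00026) and was not called with mock (0.17 ± 0.16, adjusted p = 0.498); the interaction was -0.94 ± 0.23 (adjusted p = 0.0553). Slc9a4 was dim and was called higher with anti-miR-22 (0.65 ± 0.21, adjusted p = 0.0154). Slc9a5 and Slc9a7 were dim and not called, and Slc9a5 was called lower with mock without sham mock array 3 (adjusted p = 0.0429). In all, 4 of 9 Slc9 genes were called with mock, all lower (44.4% beside 34.4% of all probes), and 6 with anti-miR-22, of which 5 fell and 1 rose (66.7% beside 37.4%).

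Of the 10 Slc4 genes, mostly bicarbonate transporters and with 1 adaptor among them, 2 fell and 1 rose with mock, and 3 fell and 1 rose with anti-miR-22. The shares called, 30% and 40%, were near those of all probes (34.4% and 37.4%). Slc4a4 encodes NBCe1, the sodium-bicarbonate cotransporter through which proximal cells return bicarbonate to the blood. It read 16.15, 16.17, 16.33, 16.05 and 16.07 in sham mock kidneys and 13.90 to 14.81 (median 14.27) in rhabdomyolysis mock kidneys, a fall of 3.57-fold (-1.84 ± 0.16, adjusted p = 8.74e-11). With anti-miR-22 it went from 15.90, 16.13, 16.13, 16.17 and 16.17 to between 12.85 and 13.79 (median 13.35), a fall of 6.75-fold (-2.75 ± 0.16, adjusted p = 7.72e-15). The injured groups lay well below the sham groups.

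Slc4a9, an anion exchanger of intercalated cells, read 10.66, 11.04, 10.81, 10.61 and 10.31 in sham mock kidneys and 8.84 to 9.49 (median 9.11) in rhabdomyolysis mock kidneys. It fell 2.99-fold with mock (-1.58 ± 0.18, adjusted p = 1.52e-08). With anti-miR-22 the sham values of 10.65, 10.15, 11.06, 10.01 and 10.80 overlapped the injured range of 9.38 to 10.25 (median 9.94), and the fall was 1.65-fold (-0.72 ± 0.18, adjusted p = 0.00154).

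Slc4a11, an ion and water transporter gene mutated in corneal dystrophy, rose 2.49-fold with mock (1.32 ± 0.22, adjusted p = 1.3e-05) and 1.79-fold with anti-miR-22 (0.84 ± 0.22, adjusted p = 0.00263). The anion exchanger Slc4a1, which is the band 3 protein of red cells and also serves acid secretion in intercalated cells, read 7.57, 7.21, 7.44, 7.27 and 7.67 in sham mock kidneys and 6.70 to 7.52 (median 7.14) after glycerol, and was not called (-0.30 ± 0.18, adjusted p = 0.235). Of 10 red cell markers only Alas2, Epb42 and Rhag were measured here, of which Alas2 (-1.17) and Rhag (-0.53) fell with mock; what red cells contributed to Slc4a1 was not tested. Slc4a8, a dim gene, fell with anti-miR-22 (-0.40 ± 0.13, adjusted p = 0.0158) and was not called with mock (0.11, adjusted p = 0.600). Without sham anti-miR-22 array 1 the adjusted p with anti-miR-22 was 0.0562, and the call ended. Slc4a2, Slc4a3, Slc4a5, Slc4a10 and Slc4a1ap were not called in either comparison.

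Among the Slc26 anion exchangers, 7 of 10 fell and 1 rose with mock (70% and 10%, beside 16.4% and 18% of all probes). With anti-miR-22, 6 fell and 1 rose (60% and 10%, beside 17.6% and 19.8%), and 3 were not called. Slc26a4, pendrin, which secretes bicarbonate for chloride in intercalated cells, read 10.05, 10.10, 10.08, 10.53 and 10.28 in sham mock kidneys and 8.17 to 9.11 (median 8.70) in rhabdomyolysis mock kidneys, with no overlap. It fell 2.94-fold with mock (-1.56 ± 0.17, adjusted p = 7.16e-09) and 2.49-fold with anti-miR-22 (-1.32 ± 0.17, adjusted p = 1.44e-07). Intercalated cell markers moved in the same direction: of 8 measured, 4 fell with mock and 7 with anti-miR-22, and their mean level ran from 9.34 to 9.62 on sham mock arrays and from 8.30 to 8.69 on rhabdomyolysis mock arrays. Their part in the falls of Slc26a4 and Slc4a9 was not tested.

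The sulfate and oxalate exchanger of the basolateral proximal membrane, Slc26a1, fell 1.70-fold with mock (-0.77 ± 0.18, adjusted p = 0.00098) and 2.28-fold with anti-miR-22 (-1.19 ± 0.18, adjusted p = 2.41e-06). The sulfate carrier Slc26a2 fell by 0.67 ± 0.18 and by 0.88 ± 0.18 on the log2 scale, and Slc26a7, found in acid-secreting cells, by 0.78 ± 0.17 and by 0.97 ± 0.17. Slc26a6, which exchanges oxalate for chloride at the brush border, fell with mock (-0.63 ± 0.18, adjusted p = 0.00616), and its value with anti-miR-22 was -0.44 ± 0.18 (adjusted p = 0.0569). That value was called without rhabdomyolysis anti-miR-22 array 3 or 5, sham anti-miR-22 array 1 or 4, rhabdomyolysis mock array 1, or sham mock array 3 or 5 (adjusted p 0.0262 to 0.0496). It was also called with array weights (0.0482), without dim probes (0.0359) and after a second quantile normalization (0.0476).

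Slc26a11 fell by 0.83 ± 0.15 with mock. With anti-miR-22 it fell by 0.39 ± 0.15 (adjusted p = 0.0357), a call that ended without sham anti-miR-22 array 2, 3 or 5 or rhabdomyolysis anti-miR-22 array 4 or 5 (adjusted p 0.0602 to 0.138). Centring on array medians ended it too (adjusted p = 0.0568). Slc26a10 and Slc26a9 were dim. Slc26a10 was called lower in both comparisons, and Slc26a9, a chloride transporter of stomach and airway, was called higher in both (0.49 ± 0.17 and 0.52 ± 0.17). The calls of Slc26a9 ended without sham mock array 3 (adjusted p = 0.0775) and without sham anti-miR-22 array 4 (0.0550), respectively. Slc26a3 and Slc26a5 were dim and not called, although Slc26a5 was called lower with mock without sham mock array 1 (adjusted p = 0.0266) or 2 (0.0232).

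Proximal tubule markers fell beside the proximal carriers. Of 9 measured, 8 fell with mock and 9 with anti-miR-22, and their mean level lay between 17.14 and 17.21 on sham mock arrays and between 14.82 and 15.46 on rhabdomyolysis mock arrays. With anti-miR-22 it lay between 17.16 and 17.29 in sham and between 14.50 and 15.09 after glycerol. Their part in the falls of the members was not tested. In promoter windows around RefSeq start sites (GRCm38.p6), 3 of the 38 members with a window held GTTAAT, one arm of the motif of the kidney factor HNF1, on either strand (7.89%, beside 8.24% of 27025 genes), and 0 held CAAAGTCCA, a motif of HNF4A (0.555% of all). A motif this rare would be missing from most sets of 38 genes, so the 0 decides nothing about HNF4A.

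A list of 29 measured genes chosen by function also moved. It held partners and regulators of these carriers together with other solute carriers of the Slc2, Slc12, Slc16 and Slc34 families. Slc34a1, Slc12a1, Slc12a3 and Foxi1 were also among the cell type markers. With mock 18 fell and 7 rose (86.2% called, beside 34.4% of all probes), and with anti-miR-22 16 fell and 5 rose (72.4%, beside 37.4%). Of all probes that were not dim, 56.5% were called with mock and 60% with anti-miR-22. The membrane-bound carbonic anhydrase genes Car4, Car12 and Car14, whose products speed bicarbonate handling, differed by -3.61, -2.94 and -5.19 with mock, while Car15, another membrane-bound form, was not called (0.27, adjusted p = 0.460). Pdzk1, a brush-border scaffold, differed by -2.79. The glucose exit carriers of the basolateral membrane went opposite ways, Slc2a2 by -0.99 and Slc2a1 by 2.44. The scaffold-binding protein gene Ezr rose by 1.09. Pdzk1ip1, whose product activates SGLT2, was not called (-0.21, adjusted p = 0.165).

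The next question was what anti-miR-22 changes relative to mock when no glycerol is given. In sham kidneys 4 of the 51 members were called, 7.84% beside 7.16% of all probes, so the share was close to the background. With anti-miR-22, Slc9a3 and Slc13a1 were lower (3.31% of all probes were) and Slc9a3r1 and Slc5a9 were higher (3.85% were). Slc4a8 (0.43, adjusted p = 0.0674) was called higher without sham mock array 2 (0.0353) and with array weights (0.0429). Slc5a12 (0.49, adjusted p = 0.455), whose sham groups did not overlap, was called higher in the fit of only the groups compared (0.0399). In rhabdomyolysis kidneys 11 members were called (21.6% beside 19.6% of all probes), again a share near the background. Of these, 8 were lower (15.7% beside 10.2%) and 3 higher (5.88% beside 9.48%). Groups that did not overlap were found in sham for 3 members above and 2 below mock (4.32% and 3.95% of all probes) and in rhabdomyolysis for 1 above and 5 below (3.45% and 3.92%). The 4 genes called in sham were called in the same direction in rhabdomyolysis, on arrays not shared with the sham comparison. These 2 comparisons do share 1 estimate of spread per probe. How many of all probes called in sham were also called in rhabdomyolysis was not counted. The anti-miR-22 comparisons share arrays with the glycerol comparisons above, so that their values are not independent of those.

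**Figure D3:**
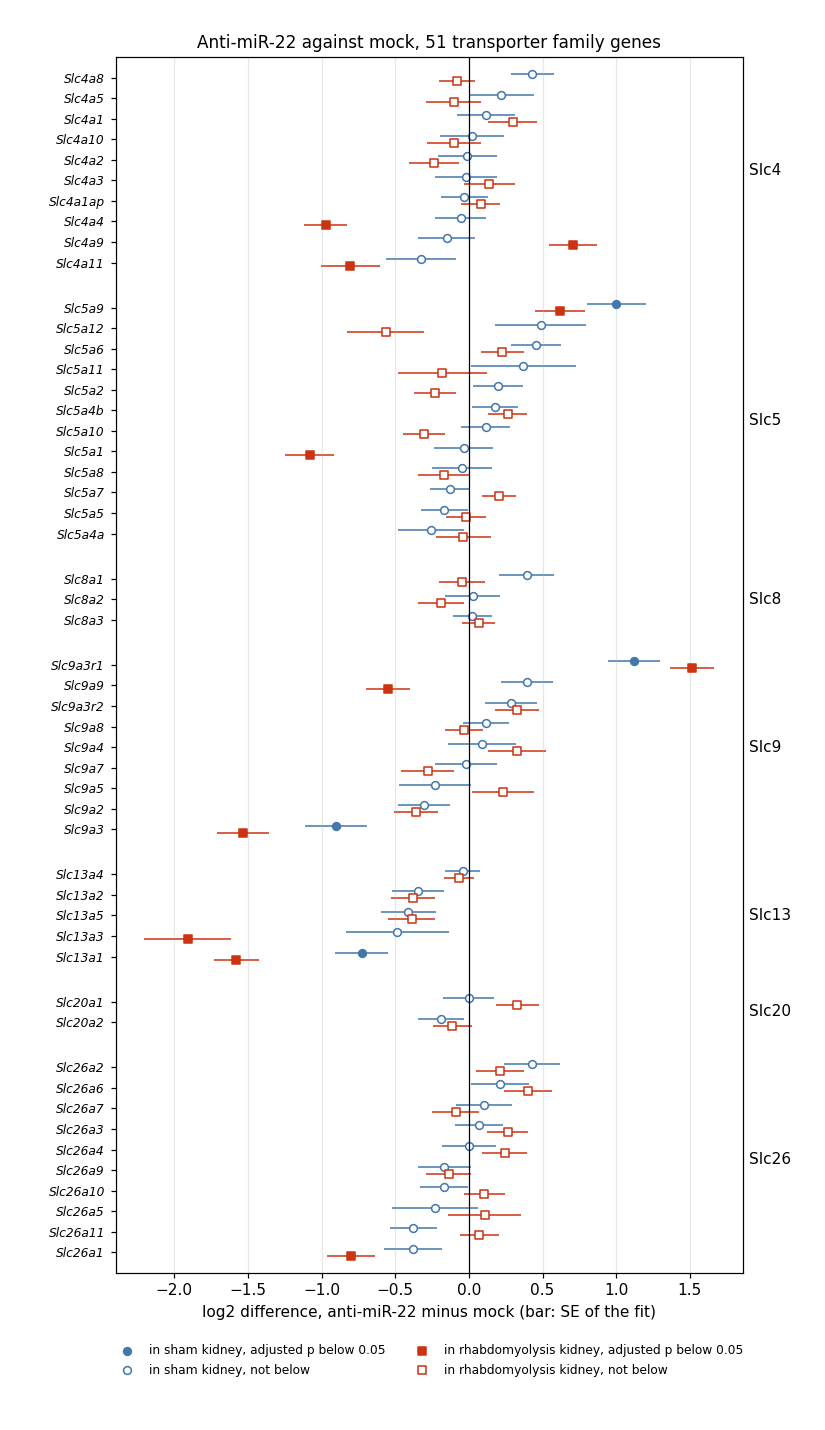
Log2 difference between anti-miR-22 and mock (x axis) for each of the 51 genes, by family, in sham kidney (circles) and in rhabdomyolysis kidney (squares). Bars are the SE of the fit and filled symbols mark an adjusted p below 0.05. Slc9a3r1 lies at 1.12 and 1.52, Slc9a3 at -0.90 and -1.53, and most other sham values are open symbols near 0.

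The exchanger NHE3 and its scaffold went in opposite directions. Slc9a3 was 13.93, 14.32, 13.60, 14.18 and 14.03 with mock and 13.11, 13.07, 13.13, 13.19 and 13.05 with anti-miR-22 in sham kidneys. Every anti-miR-22 array lay below every mock array, a difference of 1.87-fold (-0.90 ± 0.21, n = 5 against 5, limma adjusted p = 0.00548). In rhabdomyolysis kidneys the ranges of 11.45 to 12.67 with mock and 9.71 to 10.98 with anti-miR-22 did not overlap, a difference of 2.89-fold (-1.53 ± 0.18, n = 7 against 7, adjusted p = 1.09e-07). The interaction was not called (-0.63 ± 0.28, adjusted p = 0.328).

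Slc9a3r1, the gene of the scaffold NHERF1 that binds NHE3 and other brush-border transporters, was 12.61, 12.32, 12.27, 12.22 and 12.62 with mock and 13.65, 13.62, 13.28, 13.66 and 13.43 with anti-miR-22 in sham kidneys. It was 2.18-fold higher (1.12 ± 0.18, adjusted p = 5.86e-05). In rhabdomyolysis kidneys it ran from 11.97 to 12.72 (median 12.41) with mock and from 13.07 to 14.12 (median 13.999) with anti-miR-22, 2.86-fold higher (1.52 ± 0.15, adjusted p = 4.78e-09). The groups did not overlap in either state. Glycerol itself gave no call for this gene with mock (-0.07 ± 0.16, adjusted p = 0.801). With anti-miR-22 the glycerol difference was 0.32 ± 0.16 (adjusted p = 0.126), or 0.46 without rhabdomyolysis anti-miR-22 array 2, the low one of its group, where it was called (adjusted p = 0.0107). With array weights the difference was 0.37 and was called (adjusted p = 0.0499).

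The sulfate carrier Slc13a1 was lower with anti-miR-22 in both states, with no overlap between groups. In sham kidneys its values of 15.91, 15.996, 15.74, 16.14 and 16.15 stood against 16.60 to 16.90 with mock, 1.66-fold lower (-0.73 ± 0.18, adjusted p = 0.0093). In rhabdomyolysis kidneys 15.51 to 16.87 stood against 17.46 to 18.09, 2.99-fold lower (-1.58 ± 0.15, adjusted p = 3.73e-09).

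Slc5a9, a mannose carrier, was 6.90, 7.41, 7.33, 7.24 and 7.56 with mock and 8.16, 8.40, 8.22, 8.46 and 8.21 with anti-miR-22 in sham kidneys, 2.00-fold higher (1.00 ± 0.20, adjusted p = 0.0012). In rhabdomyolysis kidneys the ranges of 5.55 to 6.77 and 6.02 to 7.13 overlapped, and the gene was 1.53-fold higher (0.62 ± 0.17, adjusted p = 0.00816).

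**Figure D4:**
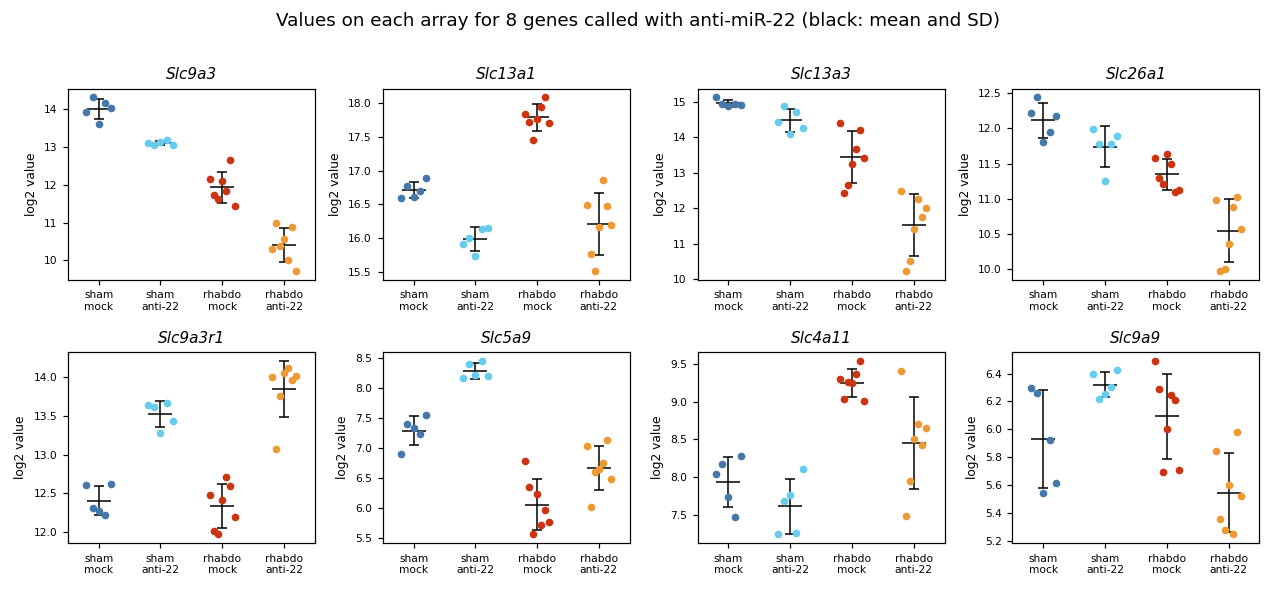
Log2 value on each array (y axis) for 8 genes called between anti-miR-22 and mock in at least 1 state; points are arrays, black marks are the group mean and SD, and anti-22 stands for anti-miR-22. Slc9a3 steps down and Slc9a3r1 steps up with anti-miR-22 in sham and in rhabdomyolysis, while Slc13a1 is highest in the rhabdomyolysis mock group (17.46 to 18.09).

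The other 7 genes were called between anti-miR-22 and mock in rhabdomyolysis kidneys and not in sham kidneys. The interaction was called for 0 of the 51 members, so a call in 1 state only does not show that the states differ. Slc13a3 read 12.43 to 14.41 (median 13.41) with mock and 10.23 to 12.49 (median 11.75) with anti-miR-22. It was 3.76-fold lower (-1.91 ± 0.30, adjusted p = 1.15e-05) with a small overlap between the groups (SD 0.74 with mock and 0.86 with anti-miR-22). The sham difference was -0.49 (adjusted p = 0.537).

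The glucose carrier Slc5a1 was 2.12-fold lower (-1.08 ± 0.17, adjusted p = 1.2e-05), with 9.61 to 11.01 against 8.67 to 9.48. In sham kidneys its difference was -0.04 (adjusted p = 0.961). Without rhabdomyolysis mock array 6 the injured difference was -0.92. The bicarbonate cotransporter Slc4a4 was 1.96-fold lower (-0.97 ± 0.15, adjusted p = 8.62e-06), with 13.90 to 14.81 against 12.85 to 13.79, and its sham difference was -0.06 (adjusted p = 0.926). Both genes had no overlap between the injured groups.

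Slc26a1 was 1.74-fold lower (-0.80 ± 0.16, adjusted p = 0.000499), with 11.10 to 11.64 against 9.98 to 11.03. Slc4a11 was 1.75-fold lower (-0.81 ± 0.20, adjusted p = 0.00361) and Slc9a9 1.46-fold lower (-0.55 ± 0.15, adjusted p = 0.00787), each with overlapping groups. In sham kidneys Slc26a1 differed by -0.38 (limma adjusted p = 0.318), Slc4a11 by -0.33 (0.542) and Slc9a9, the other way, by 0.39 (0.22). The anion exchanger Slc4a9 was 1.63-fold higher (0.71 ± 0.16, adjusted p = 0.00172), with 8.84 to 9.49 against 9.38 to 10.25. Its sham difference was -0.15 (limma adjusted p = 0.779). Pendrin, its neighbour in intercalated cells, was not called (0.24, adjusted p = 0.323), nor were Slc20a1 (0.33, adjusted p = 0.120), Slc5a8 (-0.17), Slc5a2 (-0.23) or Slc8a1 (-0.05). Leaving out 1 array added a call for 9 genes: Slc20a1, Slc13a5 (each without rhabdomyolysis mock 5), Slc26a6, Slc5a4b, Slc9a3r2 (each without rhabdomyolysis mock 1), Slc5a10 (without rhabdomyolysis mock 3), Slc5a12 (without rhabdomyolysis anti-miR-22 array 5), Slc13a2 (without that array or rhabdomyolysis mock 7) and Slc9a2 (without rhabdomyolysis anti-miR-22 array 1 or rhabdomyolysis mock 4). Slc13a2 was also called in the fit without dim probes (adjusted p = 0.0439). Intercalated cell markers had 2 higher and 2 lower of 8, and proximal tubule markers 1 higher and 4 lower of 9, with mean proximal levels of 14.82 to 15.46 with mock and 14.50 to 15.09 with anti-miR-22. Their part in these differences was not tested.

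In the list of partners, regulators and other solute carriers, 11 of 29 were called between anti-miR-22 and mock in sham kidneys (6 higher, 5 lower). This was 37.9% beside 7.16% of all probes. In rhabdomyolysis kidneys 15 were called (5 higher, 10 lower), 51.7% beside 19.6%. Of all probes that were not dim, 12.7% were called in sham and 33.9% in rhabdomyolysis. Chp1, which encodes a calcineurin-like protein that binds sodium-proton exchangers, was lower in both (-1.30, adjusted p = 4.92e-06, and -1.82, adjusted p = 8.98e-11). Fxyd2, the gene of a regulatory subunit of the sodium pump, was also lower in both (-1.37 and -1.51), and Car15 was higher in both (1.40 and 1.44).

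The last question was whether the glycerol response differed between anti-miR-22 and mock. limma called 0 of the 51 members (0.383% of all probes were called, 85 in number). An unadjusted limma p below 0.05 was found for 10 of the 51 members, beside 2746 of all 22205 probes. Among those not dim it was found for 9 of 33 members, beside 2079 of 11822 probes. The lowest adjusted p were those of Slc9a9 (0.0553), Slc5a1 (-1.05 ± 0.26, 0.0592) and Slc4a4 (-0.92 ± 0.23, 0.0595). Over the 51 members the interaction was negative for 28 and positive for 23, with a median of -0.05. These 3 interactions were called in some alternative fits. Slc9a9 was called without sham mock array 1 (adjusted p = 0.0486), without rhabdomyolysis mock array 3 or 7 and without rhabdomyolysis anti-miR-22 array 1. Slc4a4 was called without rhabdomyolysis mock array 3 or 7 and without rhabdomyolysis anti-miR-22 array 1 or 5. Slc5a1 was called without rhabdomyolysis mock array 7 (0.0444) and without rhabdomyolysis anti-miR-22 array 5 (0.0409), where Slc13a1 was called as well (0.0433).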

How the data were processed

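Kidney RNA of 24 samples was measured on Clariom S mouse arrays, 1 colour, 1 array per sample. The log2 values are those the authors deposited; the submitters' processing notes name RMA (which corrects background, normalizes between arrays and summarises probes) and Partek 6.4 without roles, and settings and array batches were not stated in the sources used here. Of 22206 probe lines, 1 was left out because it had values for only 5 arrays. Of 22205 probes, 19572 had 1 gene symbol, 0 several and 2633 none. Members match the symbols Slc4a, Slc5a, Slc8a, Slc9a, Slc13a, Slc20a and Slc26a followed by a number; 0 had more than 1 probe, and all 51 Entrez identifiers matched RefSeq with the same symbol.

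A model of the 4 group means over all 24 arrays was fitted in limma 3.58.1 (lmFit, eBayes) under R 4.3.3, two-sided, with 5 contrasts, and the fit was tested on simulated data. Members and lists were chosen with earlier results of these data known. Described in full by rule were 27 measured genes of a list chosen by role and 7 added as the 2 largest called differences per family, contrast and direction; other members are given more briefly. Alternatives were moderation with trend and robust settings, a second quantile normalization, centring on array medians, omission of dim probes, fits of only the groups compared, array weights, the replicate block, the lowest-mean probe and omission of each array. Arrays give no depth, and their number limits the precision.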

Additional observations from a re-analysis of the deposited data

Results flagged for a closer look

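In 10 of 204 groups of arrays (51 genes in 4 groups), 1 array lay apart from the rest by a gap that exceeded Dixon's critical value, and chance gives about 1 in 20. Sham mock array 3 held a low Slc8a1 of 9.90 (others 10.85 to 10.96), and rhabdomyolysis mock array 6 a high Slc5a1 of 11.01 (others 9.61 to 10.20). Sham mock array 1, the array with high Havcr1, held a high Slc13a3 of 15.13 (others 14.88 to 14.95). Sham mock array 2 held a low Slc20a1 of 9.67 (others 10.09 to 10.22), and rhabdomyolysis anti-miR-22 array 5 a low Slc20a2 of 11.60 (others 12.25 to 12.53). Sham anti-miR-22 array 1 held a low Slc4a4 of 15.90 (others 16.13 to 16.17) and a low Slc9a4 of 3.64 (others 3.83 to 3.88). Rhabdomyolysis anti-miR-22 array 2 held a low Slc9a3r1 of 13.07 (others 13.76 to 14.12). The dim genes Slc26a3 (4.72 on rhabdomyolysis anti-miR-22 array 3, others 4.18 to 4.31) and Slc4a10 (4.33 on sham anti-miR-22 array 5, others 3.65 to 3.81) completed the set.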

How the results depend on the processing

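Counts of members called stayed within 1.5 times the reported count in every alternative run of the glycerol and anti-miR-22 comparisons. With all 51 members tested, they were 30 to 32 for glycerol with mock and 30 to 33 for glycerol with anti-miR-22. Without dim probes, 28 of 33 members were called in either. Wherever a fit without dim probes is named, it kept the 11970 probes above the overall median on at least 5 arrays. This rule differs from the one by group means that defines dim genes above. Counts were 4 to 5 for anti-miR-22 in sham and 11 to 14 for anti-miR-22 in rhabdomyolysis. For the interaction, 0 members were called as reported, 3 with trend and robust moderation, 2 after a second quantile normalization, 3 without dim probes (33 members tested), 2 with array weights, 1 with the replicate block and 0 to 3 when 1 array was left out; the cause was not tested. No called difference changed sign. All 15 calls of the anti-miR-22 comparisons and 57 of 62 glycerol calls held in every alternative; those that did not were Slc8a3 and Slc26a9 with mock, and Slc26a9, Slc26a11 and Slc4a8 with anti-miR-22. Same-numbered arrays of different groups correlated weakly at most (1 of 32 pairs above 0.1, range -0.108 to 0.102), and the same number was the best match in 16 of 64 cases. Between the rhabdomyolysis groups r was 0.049 to 0.102 for numbers 1 to 6 and -0.019 for number 7. These values do not settle whether the number marks a pairing. With the replicate block 30, 31, 4 and 11 members were called in the first 4 comparisons. The lowest-mean probe changed nothing because no member has a second probe. Dim probes limit what can be said of 18 members.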
